A study of Mus musculus with 6 samples.

Results

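The genes described here encode 10 transcription factors of 3 families: the Fos factors (Fos, Fosb, Fosl1 and Fosl2), the Jun factors (Jun, Junb and Jund) and the EGR factors (Egr1, Egr2 and Egr3). They were chosen by name, and each name matched 1 of the 54532 genes in the deposited table. Polyadenylated RNA was sequenced from cultured wild-type mouse granulosa cells of the ovary, which surround and nourish the oocyte. The cyclophosphamide group (3 libraries) was exposed for 24 h to cyclophosphamide, an alkylating chemotherapy drug that liver enzymes normally convert to its active form, after a period of adherent culture. The untreated group (3 libraries) was kept in the same serum-containing medium without the drug. The treatment label of the drug samples names an intraperitoneal injection, whereas the protocol and the design text describe addition to cultured cells, and the culture description is followed here. The drug concentration, the origin of the cells and whether replicates came from separate cultures are not given in the labels, so p-values measure only the spread between these libraries, which may be technical.

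AP-1 is a dimer of basic leucine zipper (bZIP) proteins. Jun proteins can pair with each other or with Fos proteins, Fos proteins need a Jun partner, and the dimers bind the sequence TGANTCA. Fos and FosB carry strong activation domains, while FRA1 and FRA2, the products of Fosl1 and Fosl2, lack the strong carboxy-terminal activation domain. EGR proteins bind GC-rich sites through zinc fingers and are restrained by the corepressors NAB1 and NAB2. Many of these genes are immediate early genes, whose transcripts appear within minutes of a growth factor, hormone or stress signal and decay quickly. In the ovary the luteinizing hormone surge induces several of them in granulosa cells, and in the rat JunD and FRA2 are known to persist as granulosa cells luteinize.

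Promoter windows are shown for 4 of the genes, Jun and Junb, which rose with the drug, and Fos and Egr2, which fell. Each runs from 250 bases before to 50 bases after a transcript start, 5′ to 3′ on the gene's strand (RefSeq, build GRCm38.p6). Capitals mark every match, on either strand, to the AP-1 site TGANTCA, the cyclic AMP response element (CRE) core TGACGT, the Jun-type site TGACATCA, the EGR site GCGNGGGCG, the TATA box TATAAA, the CArG box bound by serum response factor, and the MEF2 site.
Jun, chr4:95052173-95052472, minus strand: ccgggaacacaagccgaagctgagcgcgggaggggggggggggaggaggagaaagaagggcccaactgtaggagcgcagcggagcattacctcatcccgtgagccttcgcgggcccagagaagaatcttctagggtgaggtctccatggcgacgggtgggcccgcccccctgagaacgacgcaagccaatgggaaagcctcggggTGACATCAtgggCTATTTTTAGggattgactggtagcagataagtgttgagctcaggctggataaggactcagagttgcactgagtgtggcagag
Junb, chr8:84978699-84978998, minus strand: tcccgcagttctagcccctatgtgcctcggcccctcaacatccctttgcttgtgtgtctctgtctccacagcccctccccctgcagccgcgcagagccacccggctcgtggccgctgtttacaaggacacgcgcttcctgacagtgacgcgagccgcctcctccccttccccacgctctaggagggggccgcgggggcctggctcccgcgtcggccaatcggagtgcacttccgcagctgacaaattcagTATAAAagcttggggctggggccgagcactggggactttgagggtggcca
Fos, chr12:85473640-85473939, plus strand: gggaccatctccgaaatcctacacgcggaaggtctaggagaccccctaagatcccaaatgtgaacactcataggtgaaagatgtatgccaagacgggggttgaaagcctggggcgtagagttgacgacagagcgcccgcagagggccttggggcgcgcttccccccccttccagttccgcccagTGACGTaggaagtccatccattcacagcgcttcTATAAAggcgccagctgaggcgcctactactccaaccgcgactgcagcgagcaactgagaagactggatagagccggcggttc
Egr2, chr10:67537619-67537918, plus strand: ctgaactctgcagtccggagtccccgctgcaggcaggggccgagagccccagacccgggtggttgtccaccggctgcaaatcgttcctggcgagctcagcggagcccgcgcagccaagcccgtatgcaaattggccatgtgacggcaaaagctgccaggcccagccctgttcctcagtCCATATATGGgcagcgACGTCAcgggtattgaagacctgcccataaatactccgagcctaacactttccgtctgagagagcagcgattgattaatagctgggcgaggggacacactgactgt

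Windows matched 7 of the 10 genes (Fos, Fosb, Fosl2, Jun, Junb, Jund and Egr2), in 11 windows because Egr2 has several transcript starts. The Jun window holds a Jun-type site from -45 to -38 and a MEF2 site from -33 to -24. These sites were found in 3.62% and 3.19% of all 32851 windows. The Fos window holds a CRE core from -66 to -61 and a TATA box from -33 to -28, found in 7.51% and 13.6% of all windows. A CArG box, found in 1.63% of all windows, lies from -72 to -63 in the Egr2 window shown, beside a CRE core from -56 to -51 on the other strand. Junb showed a TATA box from 1 to 6 after the RefSeq start and no other match. That RefSeq start lies upstream of the Junb start in the table (84978718), so the TATA box lies before the table's start. Fosb and Fosl2 windows each held an EGR site (5.55% of all windows), the Jund window, whose RefSeq start lies upstream of the start in the table, held no match, and the AP-1 site TGANTCA (7.81%) was in none of the 11 windows. A match describes letters in the window and not binding.

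With cyclophosphamide 4 of the 10 genes rose (Fosl1, Jun, Junb and Egr1), 3 fell (Egr2, Fos and Jund) and 3 were not called (Fosl2, Fosb and Egr3). Calls are at a Benjamini-Hochberg adjusted p under 0.05 over all 14885 genes tested with limma on log2(FPKM + 0.1), where FPKM is the read number divided by gene length and by library size. By the same test 33.1% of all genes tested were called higher and 35.8% lower, so the share of these factors that changed is close to the background. All 3 cyclophosphamide libraries lay above all 3 untreated ones for the 4 genes that rose and below them for the 3 that fell. Among all genes tested such a separation was found upward for 35.3% and downward for 37.8%. The median size of the log2 fold change, sign ignored, was 0.85 for the 10 genes and 0.57 for all genes tested. All 10 genes passed the read filter for testing, Egr2 through the untreated libraries alone.

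**Figure D1:**
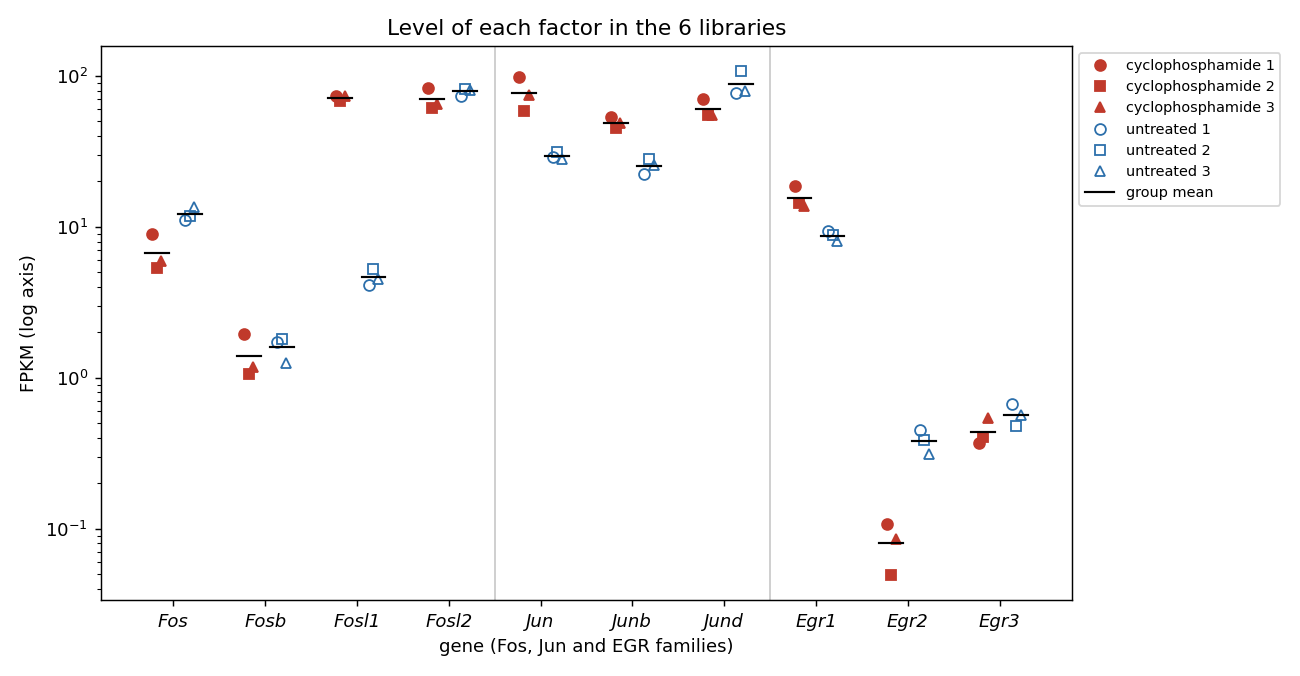
Level of each factor in FPKM (log axis) in the 3 cyclophosphamide libraries (filled) and the 3 untreated libraries (open), with the group mean as a bar. Fosl1 stands near 72 FPKM in all cyclophosphamide libraries and near 5 FPKM in all untreated ones, while the values of Fosl2, Fosb and Egr3 overlap between the groups.

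Depth ranged from 16458385 to 17607586 reads per library, and correlations of log2 values were 0.987 to 0.991 within cyclophosphamide, 0.989 to 0.991 within untreated and 0.899 to 0.910 between the groups. Cyclophosphamide replicate 1 was the highest of its group for 8 of the 10 genes, against 41.8% of all genes tested. Its median excess over the mean of replicates 2 and 3 was 0.38 on the log2 scale for the 10 genes and 0.02 for all genes tested. This excess was not particular to these factors. Among other immediate early genes Csrnp1 (21.6, 10.5 and 13.7 FPKM) and Gadd45b (63.4, 28.8 and 39.7 FPKM) had it too, whereas Btg2 (214, 253 and 209 FPKM) did not. Granulosa markers were present, with a summed level of 1059 to 1366 FPKM in cyclophosphamide and 2838 to 3006 FPKM in untreated libraries, although Amh and Cyp19a1 together held 23 reads in cyclophosphamide and 19 in untreated libraries. Of the 10 granulosa markers tested 9 fell and 1 rose, against 35.8% lower and 33.1% higher of all genes tested. Summed markers of other cells were 12.5 to 13.8 against 19.0 to 21.9 FPKM for theca and stroma, 0.39 to 0.69 against 0.51 to 0.75 for endothelium, and 8.05 to 9.02 against 3.26 to 3.62 for macrophages and blood (cyclophosphamide against untreated). They were 2.44 to 3.87 against 0.66 to 0.85 for oocytes, 49.8 to 73.1 against 106 to 120 for surface epithelium and 13.0 to 23.5 against 81.9 to 93.2 for smooth muscle. No listed marker of these types was at 0 in every library. In the untreated libraries the surface epithelial sum was mostly Krt8 (mean 51.1 FPKM) and Krt18 (60.7). Krt19, Upk3b and Msln stood there at 0.89, 0.69 and 0.64 FPKM. The untreated smooth muscle sum was mostly Acta2 (84.6 FPKM), with Notch3 at 1.75, Cnn1 at 0.85, Myh11 at 0.84 and Des at 0.48. Theca and stroma markers were called higher for 1 and lower for 1 of 4 tested, endothelial for none of 2, macrophage and blood for 2 higher of 2, oocyte for 1 higher of 2, surface epithelial for 4 lower of 5 and smooth muscle for 1 higher and 3 lower of 5. The epithelial markers Krt19 and Upk3b passed the read filter only through the untreated libraries. They held 16 and 13 reads with cyclophosphamide, against 84 and 124 in untreated libraries. Of the 7 macrophage and blood markers listed, only Cd68 and Csf1r were tested. The others together held 14 reads in cyclophosphamide and 37 in untreated libraries. The part of the cell type markers in the results below was not tested. In bulk RNA, fewer cells of a type and less RNA per cell cannot be told apart.

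Fosl1, which encodes FRA1, was the Fos gene that changed most. Its level was 73.5, 68.0 and 74.2 FPKM in the cyclophosphamide libraries, against 4.12, 5.27 and 4.51 FPKM in the untreated libraries. Every cyclophosphamide library was far above every untreated one, and the spread within each group was small beside the gap. The log2 fold change was 3.93 ± 0.09 (SE, limma, adjusted p = 1.3e-07), which placed Fosl1 at rank 18 of 14885 tested genes when ordered from the largest rise. The recovered reads numbered 6336 over the cyclophosphamide and 402 over the untreated libraries. Fosl1 (ENSMUSG00000024912) lies on chromosome 19 from 5447703 to 5455945 on the plus strand.

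Fos, the founding member of the family and a classical immediate early gene, fell. It measured 8.96, 5.31 and 5.91 FPKM with cyclophosphamide, against 11.2, 11.8 and 13.6 FPKM in untreated cells. The groups did not overlap, and cyclophosphamide replicate 1 came nearest to the untreated libraries. Its log2 fold change was -0.88 ± 0.18 (limma, adjusted p = 0.0031), and without that replicate it was -1.10. Fos (ENSMUSG00000021250) lies on chromosome 12 from 85473890 to 85477273 on the plus strand.

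Fosl2, which encodes FRA2, was the most abundant Fos transcript in untreated cells and was not called. Its level was 83.6, 61.0 and 65.7 FPKM with cyclophosphamide, against 74.0, 82.0 and 81.3 FPKM in untreated cells. Cyclophosphamide replicate 1 was the highest of the 6 libraries, while the other cyclophosphamide libraries lay below all untreated ones. The log2 fold change was -0.19 ± 0.12 (limma, adjusted p = 0.19). Leaving out cyclophosphamide replicate 1 gave -0.32 and a call (limma, adjusted p = 0.0054), and upper-quartile scaling of all 6 libraries also gave a call (-0.30, limma, adjusted p = 0.031). Fosl2 (ENSMUSG00000029135), on chromosome 5 from 32135801 to 32157842, has the longest span of the 10 genes, 22042 bases.

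Fosb, whose product resembles Fos in its activation domains, was low in both groups. It had 1.96, 1.06 and 1.19 FPKM with cyclophosphamide, against 1.72, 1.81 and 1.26 FPKM in untreated cells. The values overlapped, with the highest and the lowest of all 6 both in cyclophosphamide libraries. The log2 fold change was -0.21 ± 0.24 (limma, adjusted p = 0.47), and without cyclophosphamide replicate 1 it was -0.46 (limma, adjusted p = 0.069). Fosb (ENSMUSG00000003545) lies on chromosome 7 from 19302696 to 19310051 on the minus strand.

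The make-up of the Fos family mRNA differed between the groups. Fosl1 made up 43.8%, 50.2% and 50.5% of the summed Fos family FPKM in the cyclophosphamide libraries, against 4.53%, 5.22% and 4.48% in the untreated libraries. Fosl2 made up 46.5% ± 2.82 with cyclophosphamide and 81.1% ± 0.29 without (SD, n = 3 each), although its own level was not called different. Fos held 4.42% ± 0.79 with cyclophosphamide and 12.5% ± 0.90 without. The family sum was 168, 135 and 147 FPKM in cyclophosphamide libraries, against 91.0, 101 and 101 FPKM in untreated ones. A ratio inside a library does not depend on the scaling between libraries: Fosl1 over Fos was 8.21, 12.8 and 12.6 with cyclophosphamide, against 0.37, 0.45 and 0.33 in untreated cells.

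**Figure D2:**
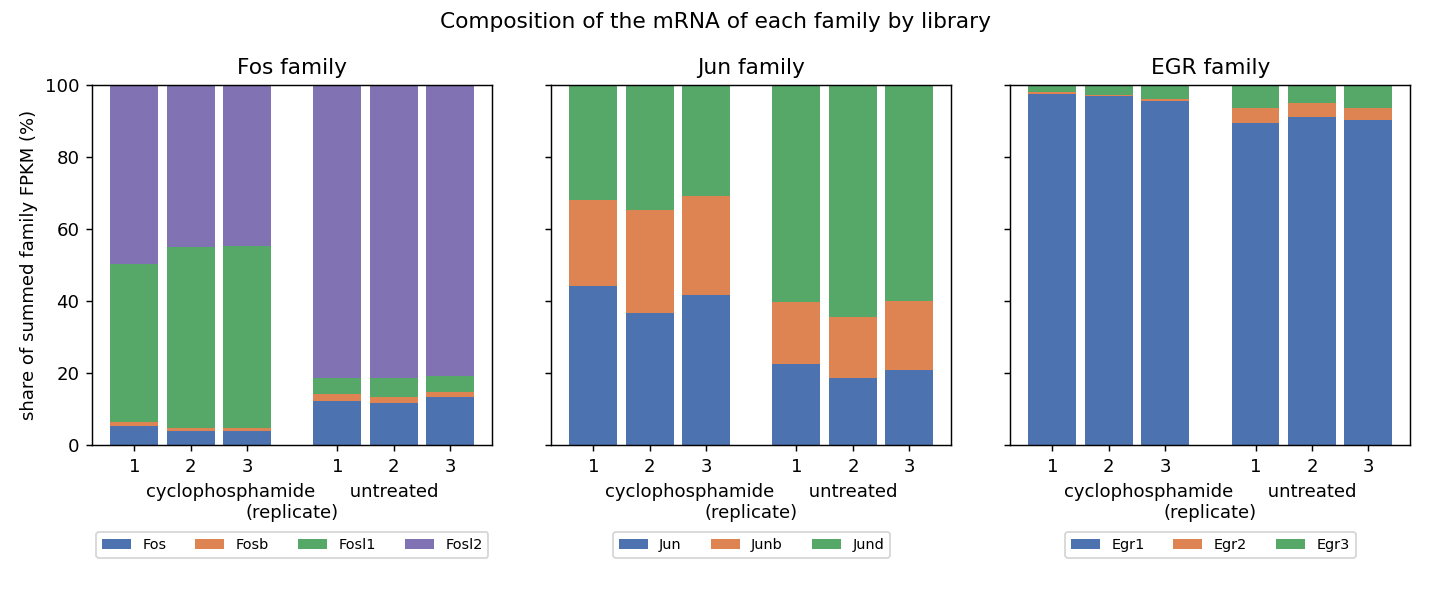
Share of each gene in the summed FPKM of its family (%), 1 bar per library, with the 3 cyclophosphamide libraries left of the 3 untreated ones in each panel. Fosl1 and Fosl2 hold 48.2% and 46.5% of Fos family mRNA on average with cyclophosphamide, and Jund holds 32.5% of Jun family mRNA with cyclophosphamide and 61.5% in untreated libraries.

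Jun and Junb rose and Jund fell. Jun encodes c-Jun, the main target of the JNK kinases and an activator of its own promoter. It stood at 97.8, 58.5 and 74.6 FPKM with cyclophosphamide, against 29.0, 31.4 and 28.0 FPKM in untreated cells. All cyclophosphamide libraries were above all untreated ones, but they differed among themselves, with replicate 1 highest. The log2 ratio of the groups was 1.35 ± 0.17 (limma, adjusted p = 0.00017), and without that replicate it was 1.16. Jun (ENSMUSG00000052684) is an intronless gene on chromosome 4 from 95049034 to 95052222 on the minus strand, and the antisense gene Junos, which overlaps it by 689 bases, held 64 reads over all 6 libraries.

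Junb encodes a Jun protein that activates weakly at many AP-1 sites and often opposes c-Jun. Its level was 53.3, 45.2 and 49.1 FPKM with cyclophosphamide, against 22.4, 28.0 and 25.6 FPKM in untreated cells. The groups were well separated, and the log2 fold change was 0.96 ± 0.10 (limma, adjusted p = 6.3e-05). Junb (ENSMUSG00000052837), on chromosome 8 from 84974484 to 84978718 on the minus strand, overlaps 351 bases of Prdx2, a peroxiredoxin gene on the plus strand. Prdx2 held 60326 reads over the 6 libraries, and since the strand setting of the counting is not given, reads in the overlap cannot be assigned with certainty.

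Jund, which encodes the Jun protein most abundant in many resting cells, fell. It measured 70.7, 55.2 and 55.2 FPKM with cyclophosphamide, against 77.7, 108 and 79.9 FPKM in untreated cells. The gap between the highest cyclophosphamide library and the lowest untreated one was small, and untreated replicate 2 was well above the other untreated libraries. The log2 fold change was -0.54 ± 0.15 (limma, adjusted p = 0.011), and without untreated replicate 2 it was -0.39 (limma, adjusted p = 0.026). Jund (ENSMUSG00000071076), on chromosome 8 from 70698949 to 70700616, spans 1668 bases in a single exon.

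Within the Jun family the order of the transcripts differed between the groups. Jun made up 40.9% ± 3.72 of the family FPKM with cyclophosphamide and 20.7% ± 1.85 without (SD, n = 3 each), and the groups did not overlap. Jund made up 32.5% ± 2.02 with cyclophosphamide and 61.5% ± 2.57 without, and Junb 26.6% ± 2.32 with cyclophosphamide and 17.8% ± 1.26 without. Inside a library Jun stood at 1.38, 1.06 and 1.35 times Jund with cyclophosphamide, against 0.37, 0.29 and 0.35 times in untreated cells. The family sum overlapped between the groups, at 222, 159 and 179 FPKM with cyclophosphamide and 129, 167 and 134 FPKM without.

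The EGR genes were lower in level than most Fos and Jun genes and moved in both directions. Egr1, an immediate early zinc finger factor, measured 18.6, 14.4 and 13.7 FPKM with cyclophosphamide, against 9.37, 8.79 and 8.07 FPKM in untreated cells. Every cyclophosphamide library exceeded every untreated one. The log2 fold change was 0.81 ± 0.12 (limma, adjusted p = 0.00054), and without cyclophosphamide replicate 1 it was 0.68. Egr1 (ENSMUSG00000038418) lies on chromosome 18 from 34859823 to 34864984 on the plus strand and supplied 96.7% ± 0.96 of the EGR family FPKM with cyclophosphamide and 90.2% ± 0.82 without.

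Egr2, known as Krox20 and for its role in myelinating Schwann cells, was the lowest of the 10 genes and fell. It had 0.11, 0.05 and 0.09 FPKM with cyclophosphamide, against 0.45, 0.39 and 0.31 FPKM in untreated cells. In reads these are 6, 3 and 5 with cyclophosphamide and 25, 23 and 18 in untreated libraries. Testing needed at least 10 reads in at least 3 libraries, so Egr2 entered the test only through the group where it was high. The groups did not overlap, and the log2 fold change was -1.43 ± 0.21 (limma, adjusted p = 0.00049). At these counts the size depends on the pseudocount and the method: it was -0.36 with a pseudocount of 1 FPKM and -2.19 in limma-voom on the recovered reads, with the call kept in both. Egr2 (ENSMUSG00000037868) lies on chromosome 10 from 67535475 to 67542188.

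Egr3, a relative induced by the same signals in many cells, was not called. Its level was 0.37, 0.41 and 0.54 FPKM with cyclophosphamide, against 0.67, 0.48 and 0.56 FPKM in untreated cells, from 100 and 127 reads in all. The groups overlapped, and the log2 fold change was -0.32 ± 0.20 (limma, adjusted p = 0.18). It was the only member for which cyclophosphamide replicate 1 was the lowest of its group. Egr3 (ENSMUSG00000033730) lies on chromosome 14 from 70077203 to 70082614.

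**Figure D3:**
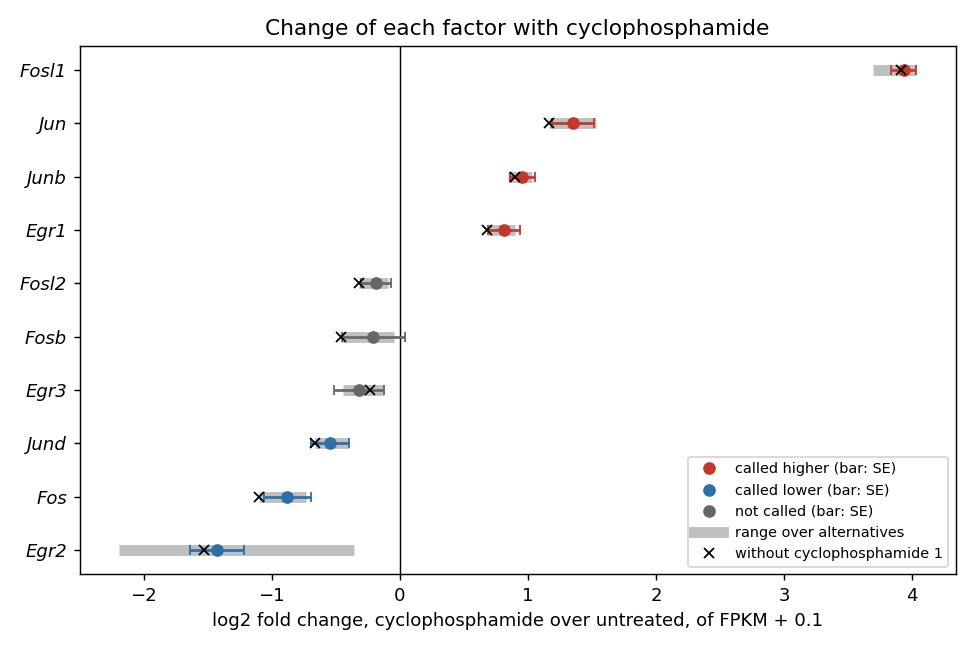
Log2 fold change of FPKM + 0.1, cyclophosphamide over untreated, for each factor, with its SE as a thin bar, the range over all alternatives as a grey band and the value without cyclophosphamide replicate 1 as a cross. Fosl1 lies at 3.93, apart from the other 9 genes, which lie between -1.43 and 1.35.

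Ordered by FPKM with cyclophosphamide, Jun (mean 77.0) was followed by Fosl1 (71.9), Fosl2 (70.1) and Jund (60.4), and each of these neighbours overlapped the next over the 3 libraries. Junb (49.2), Egr1 (15.6), Fos (6.73), Fosb (1.40), Egr3 (0.44) and Egr2 (0.08) came after them without overlap between neighbours. In untreated cells Jund (88.4) and Fosl2 (79.1) overlapped at the top, Jun (29.5) and Junb (25.3) overlapped below them, and Fos (12.2), Egr1 (8.75), Fosl1 (4.63), Fosb (1.60), Egr3 (0.57) and Egr2 (0.38) followed without overlap. By mean Fosl1 therefore had rank 2 among these 10 transcripts with cyclophosphamide, within the overlapping top genes, and rank 7 without. The length behind the Fosl1 FPKM was 1707 bases, against 2033 exonic bases in GENCODE M21. Its level beside other genes and its family share depend on that length.

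The genes are short. Their spans (coordinates as in the table, taken as build GRCm38) run from 1668 bases for Jund to 22042 bases for Fosl2, with a median of 5.29 kb, against 20.2 kb over all genes tested. Tested genes with a span no larger than that of Fosl2 had a median log2 fold change of 0.06 (2716 higher and 2379 lower of 7809), and longer genes one of -0.11 (2216 higher and 2946 lower of 7076). The genes are spread over 9 chromosomes, with Junb and Jund both on chromosome 8. In the 3′ untranslated region of the principal GENCODE M21 transcript, 6 of the 10 genes hold the AU-rich heptamer TATTTAT, a kind of element known to mark unstable mRNA. The heptamer occurred 2 times in Fos and 3 times in Fosl2, and 1 time in each of Fosb, Fosl1, Jun and Jund. Of regions within 10% of the same length, 20.6% held at least 1 for Fos, 18.5% for Fosl1, 30.8% for Jun, 14.1% for Jund, 43.5% for Fosb and 67.2% for Fosl2. At least as many as in the gene itself were held by 4.16% of such regions for Fos and 16.2% for Fosl2. Junb and the 3 EGR genes held none, and both the genes that rose and those that fell include members with and without it.

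The profiles most like that of Fosl1 over the 6 libraries, by the mean absolute difference of log2(FPKM + 0.1) after centring on the untreated mean, belonged to Slc22a4, Gsta4 and Vegfa among 10744 protein-coding genes. Slc22a4, a carnitine and ergothioneine transporter gene, differed by 0.11, Gsta4, a glutathione transferase gene, and Vegfa, an angiogenic growth factor gene, by 0.15 each. Their levels were 7.88 ± 0.64 FPKM with cyclophosphamide and 0.44 ± 0.02 without for Slc22a4, 860 ± 56.0 and 64.7 ± 2.85 for Gsta4, and 302 ± 2.49 and 22.9 ± 1.04 for Vegfa (SD, n = 3 each, cyclophosphamide before untreated). For Egr2 the most alike were Metrnl (0.09), which encodes a secreted protein, Ltbp1 (0.09), a TGF-beta binding matrix protein gene, and Ifitm2 (0.10), an interferon-inducible membrane protein gene. Since the libraries form only 2 groups, this measure mainly ranks genes by a similar size of change on that scale. The change of Egr2 was -1.43 on that scale and -2.19 in limma-voom, so its likeness to these genes depends on the pseudocount.

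Other bZIP genes whose products pair with Fos or Jun proteins mostly rose, against 33.1% of all genes tested called higher and 35.8% called lower. This list, like the others, was chosen with earlier results of these data known. Of 14 listed, 10 were tested, 7 rose and none was called lower in limma (0 lower at an unadjusted p under 0.05, and 0 in limma-voom), and the median log2 fold change was 0.66, against -0.02 over all genes tested. Atf3, a stress-induced repressor that dimerizes with Jun proteins, measured 40.1 ± 4.67 FPKM with cyclophosphamide and 2.99 ± 0.04 without (log2 fold change 3.69 ± 0.09, limma, adjusted p = 1.4e-07). The small Maf genes Mafg (1.75 ± 0.07) and Mafk (0.75 ± 0.09), whose products lack an activation domain, also rose. The EGR corepressor genes Nab1 (0.06 ± 0.09) and Nab2 (-0.12 ± 0.22), and Wt1 (0.006 ± 0.13), a zinc finger gene whose product recognises sites like those of EGR, were not called, with adjusted p from 0.56 to 0.97 in limma. The signs of all 3 turned when a single library was left out, and those of Nab1 and Wt1 also under upper-quartile scaling. Without untreated replicate 1, Nab2 was called lower (-0.39, limma, adjusted p = 0.042). Egr4 held 5 reads with cyclophosphamide and 1 without and was not tested.

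Regulators that act on the promoters of these genes moved in both directions. Of 12 genes for serum response factor, its ternary complex partners, CREB and MEF2, 5 rose and 4 fell. Their median log2 fold change was 0.05, and of all genes tested 33.1% were called higher and 35.8% lower. Srf, whose product binds CArG boxes, measured 33.0 ± 1.83 FPKM with cyclophosphamide and 16.2 ± 1.39 without (1.02 ± 0.08, limma, adjusted p = 1.6e-05). Atf1, a CREB relative that binds CREs, rose by 1.31 ± 0.09, and Elk3, a ternary complex factor that can repress Fos, had a log2 fold change of -2.14 ± 0.14.

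The kinase cascades that feed these factors showed no common direction. Among 15 ERK cascade genes 4 rose and 7 fell (median -0.25), with Map2k2, which encodes MEK2, at -0.72 ± 0.08 and the RSK kinase gene Rps6ka2 at -0.94 ± 0.11. Among 20 JNK and p38 cascade genes 6 rose and 7 fell (median -0.09). These counts are close to the shares over all genes tested, 33.1% higher and 35.8% lower. Among the JNK and p38 genes that fell, Mapk10 and Mapk11 entered the test only through the untreated libraries, where they were high. They held 9 and 3 reads with cyclophosphamide, against 217 and 35 in untreated libraries. The upstream kinase genes Map3k20 (0.95 ± 0.07) and Map3k1 (-1.05 ± 0.07) moved apart, and Mapkapk3, a p38 substrate kinase gene, rose by 1.21 ± 0.10. Kinase activity and the phosphorylation of Jun or Fos were not measured.

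Genes for the turnover of AP-1 proteins changed little. Of 6, 2 rose and 1 fell, and those that rose were Cop1 (0.35 ± 0.09) and Fbxw7 (0.32 ± 0.12), which encode ubiquitin ligase components that act on c-Jun. The call of Fbxw7 (limma, adjusted p = 0.046) was lost under 8 alternatives, among them leaving out cyclophosphamide replicate 1 or 3 or any untreated library, with adjusted p from 0.060 to 0.17. That of Cop1 was lost under upper-quartile scaling (0.24, limma, adjusted p = 0.065). Cops5 (0.08 ± 0.08), Itch (0.10 ± 0.07) and Det1 (-0.02 ± 0.12) were not called. Among 6 genes for proteins that bind AU-rich elements of mRNA, the decay-promoting genes Zfp36 (1.30 ± 0.09), Zfp36l1 (0.62 ± 0.13) and Zfp36l2 (1.34 ± 0.09) rose with the stabilising Elavl1 (0.28 ± 0.07). Hnrnpd fell (-1.03 ± 0.10) and Khsrp was not called (-0.06 ± 0.09), and the median of the list was 0.45. Both lists of 6 stand beside 33.1% of all genes tested called higher and 35.8% called lower.

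Of 30 other immediate early genes tested, 18 rose and 9 fell, with a median log2 fold change of 0.72 (range -5.88 to 2.64). The shares over all genes tested, 33.1% higher and 35.8% lower, are the background for these counts and those of the targets below. Klf4, a zinc finger factor that restrains proliferation, measured 51.3 ± 5.62 FPKM with cyclophosphamide and 8.13 ± 0.27 without (2.64 ± 0.09, limma, adjusted p = 4.9e-07). The antiproliferative gene Btg2 rose by 2.48 ± 0.09, and the kinase gene Sgk1 had a log2 fold change of -2.63 ± 0.11. Of 16 tested genes that are known AP-1 targets in other cells, 8 rose and 5 fell (median 0.52, range -3.41 to 4.38). The highest were Hmox1 (4.38 ± 0.12), Vegfa (3.72 ± 0.06) and Ptgs2 (3.03 ± 0.09), which encode heme oxygenase, a vascular growth factor and the prostaglandin synthase COX2. Areg, also among the AP-1 targets that rose, entered the test only through the cyclophosphamide libraries. It held 47 reads there, against 19 in untreated libraries. Of 13 tested genes known as EGR targets in other cells 6 rose and 6 fell (median -0.12), with the stress cytokine gene Gdf15 at 4.70 ± 0.10 and the growth factor gene Pdgfb at -1.94 ± 0.10. Target lists overlap with each other, and their genes answer to other factors too.

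**Figure D4:**
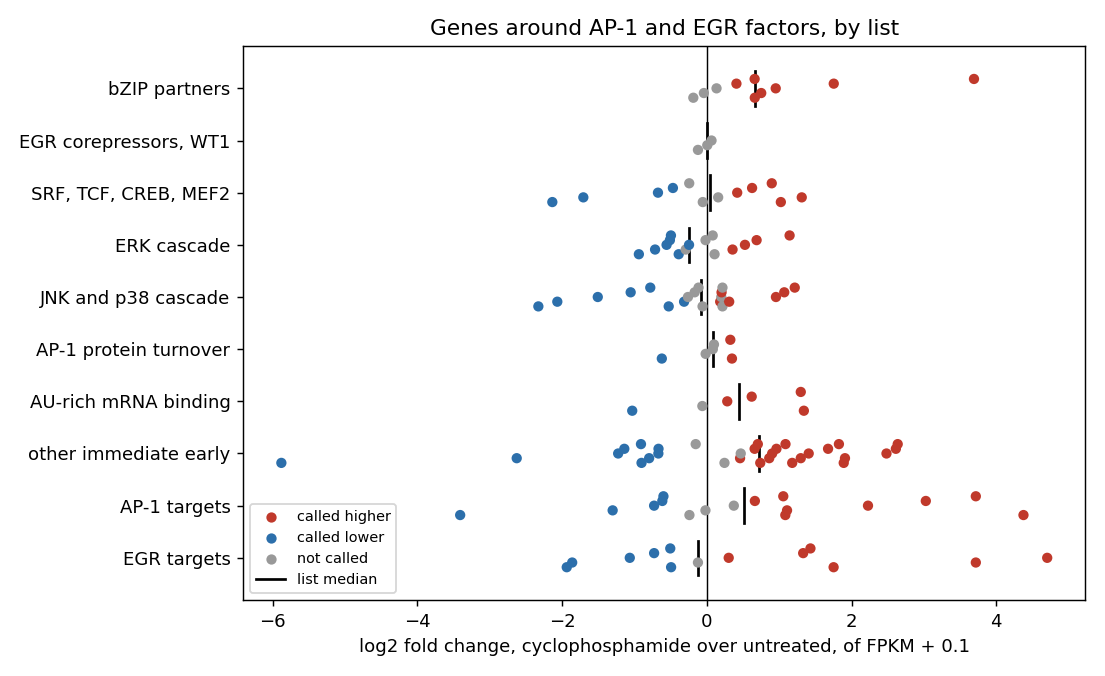
Log2 fold change of FPKM + 0.1, cyclophosphamide over untreated, for each tested gene of 10 lists around AP-1 and EGR factors, coloured by call, with the list median as a bar. The bZIP partners have a median of 0.66 and none called lower, while the kinase cascades and EGR targets spread to both sides of 0.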

How the data were processed

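The submitters' processing notes list CASAVA, HISAT2 (version 2.0.5) and GRCm39. The counter and its strand setting are not given here. Although named for raw counts, the authors' deposited table holds FPKM: times the gene length, 100% of values were whole multiples of a step per library (tolerance 0.01 of a read), which recovers reads. The library sizes this implies were 0.975 to 1.04 times the summed reads. Start and end equal those of GENCODE M21 (GRCm38) for 98.3% of 54409 shared IDs, but not for Fosl1.

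Genes with at least 10 recovered reads in at least 3 libraries (14885, with 99.9% of reads) entered limma (version 3.58.1, R version 4.3.3) as log2(FPKM + 0.1), using its trended, moderated variances, two-sided, adjusted by Benjamini-Hochberg over all of them. On this scale the change of low genes is understated. The fit was tested on simulated data. Alternatives were pseudocounts of 0.5 and 1, other filters and scalings, limma-voom, the replicate number as a block and leaving out each library.

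The members and lists were chosen with earlier results of these data known. Each list names its 3 called genes with the smallest adjusted p, or all tested genes where at most 6 were measured. Of the genes this rule takes, 2 are not reported here. The 3 closest profiles are named for the members with the largest rise and fall. Older symbols were matched through RefSeq for 4 of 199 listed genes.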

Additional observations from a re-analysis of the deposited data

How the results depend on the processing

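The direction of every one of the 10 factors was kept in all alternatives run, and the 4 that rose and Fos and Jund kept their calls in all 15; Egr2 kept its call in the 14 that test it, since the stricter filter removes Egr2 and Egr3. Fosl2 was called lower under upper-quartile scaling (-0.30, limma, adjusted p = 0.031) and without cyclophosphamide replicate 1. Upper-quartile scaling moved the median log2 fold change of all genes to -0.13, against -0.02. The replicate numbers share no known source, and the correlations of deviations of equal numbers were -0.08, 0.005 and -0.03; with the replicate block 4 factors were higher and 3 lower, and 4772 genes were higher and 5165 lower. Among other genes named but not called, upper-quartile scaling turned the sign of Cops5 (log2 fold change -0.030), Itch (-0.013), Nab1 (-0.048) and Wt1 (-0.10). The sign of Det1 turned under median-of-ratios scaling (0.0057) and scaling to equal reads (0.028). Over the alternatives that leave out 1 library, values ran from -0.095 to 0.045 for Det1, -0.12 to 0.0077 for Khsrp, -0.033 to 0.13 for Nab1, -0.39 to 0.046 for Nab2 and -0.058 to 0.050 for Wt1. Low counts limit Egr2 and Egr3.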

Other observations

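The deposited table assigns transcription factor families, and its bZIP class holds 41 genes beyond the Fos and Jun factors, of which 34 were tested. Of these 20 rose and 7 fell, with a median log2 fold change of 0.50, against 33.1% higher and 35.8% lower of all genes tested. The following genes were chosen after their values were seen. Ddit3, which encodes CHOP, measured 154 ± 1.97 FPKM with cyclophosphamide and 7.07 ± 0.34 without (SD, n = 3 each), and Atf4, the main effector of the integrated stress response, 407 ± 47.7 with cyclophosphamide and 102 ± 4.26 without. Both were more abundant than any Fos or Jun transcript in the cyclophosphamide libraries. Among the 7 that fell, 3 belong to the Creb3 group of membrane-bound factors that are cleaved in the Golgi: Creb3l2 measured 13.4 ± 0.99 FPKM with cyclophosphamide and 61.1 ± 3.48 without (log2 fold change -2.18 ± 0.08, limma, adjusted p = 5.6e-07), Creb3 27.9 ± 3.20 with cyclophosphamide and 57.7 ± 3.40 without, and Creb3l3 0.19 ± 0.05 with cyclophosphamide and 0.85 ± 0.11 without. Of the same group Creb3l4 rose (1.09 ± 0.29) and Creb3l1 was not called (-0.24 ± 0.10, limma, adjusted p = 0.058). Nfe2l3, a relative of NRF2, had a log2 fold change of -2.20 ± 0.17 at 0.09 FPKM with cyclophosphamide and 0.78 without. It held 5, 4 and 5 reads with cyclophosphamide and 41, 37 and 39 without. Creb3l3 held 9, 13 and 7 reads with cyclophosphamide and 36, 48 and 47 without. Both passed the read filter only through the untreated libraries, and at such counts the size of a fall depends on the pseudocount.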
